A study of Mus musculus with 3 samples.

Results

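The colony-stimulating factors and their receptors were followed in immune cells of the mouse infrarenal aorta. The 7 genes Csf1, Csf2, Csf1r, Csf2ra, Csf2rb, Csf2rb2 and Csf3r were chosen by symbol, out of 32285 genes in the count tables, and all 7 were found. They comprise 2 ligands and 5 receptor genes, and earlier results of these data were known when they were chosen.

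Colony-stimulating factors are secreted proteins that let bone marrow precursors and mature myeloid cells survive, divide and become activated. Csf1 encodes macrophage colony-stimulating factor (M-CSF), which signals through the receptor tyrosine kinase encoded by Csf1r and keeps macrophages alive. Csf2 encodes granulocyte-macrophage colony-stimulating factor (GM-CSF), whose receptor joins the ligand-binding alpha chain encoded by Csf2ra to the beta common chain encoded by Csf2rb, which is shared with the receptors of interleukin-3 and interleukin-5. In the mouse, Csf2rb2 encodes a second beta chain that serves interleukin-3, and Csf3r encodes the receptor of granulocyte colony-stimulating factor, the main growth factor of neutrophils.

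All cells came from wild-type mice, and each group was 1 library. Sham aortas were given PBS (phosphate-buffered saline) as a control, and AAA_14 aortas were given elastase, which breaks down elastic fibres of the vessel wall and is used to model abdominal aortic aneurysm (AAA). The third library is titled AAA_7 as an aneurysm sample while its treatment label reads PBS, so its treatment is in doubt and it is called by its title throughout. The labels give no unit for 7 and 14. They give 50 pooled aortas for Sham, 20 for AAA_14 and no number for AAA_7 by itself. Aortas of a group were mixed before digestion with collagenase, hyaluronidase and DNase, and CD45+ cells (leukocytes) were enriched on magnetic beads and sequenced with droplet 3′ chemistry. The model is therefore 1 pool of animals per group, read after bead selection, and the study asked how immune cells of aneurysmal and normal aortas differ. With 1 library per group there was no replicate and no test between groups. Every ratio below compares libraries, and its 95% interval covers counting error only.

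Cells with at least 200 genes and at most 10% of mitochondrial UMIs (unique molecular identifiers, the counted molecules) came to 1223 Sham, 3146 AAA_7 and 5062 AAA_14 cells after doublet removal, of 17389 barcodes, with median depths of 3637, 2534.5 and 6735.5 UMIs. The mitochondrial limit had removed 66.9%, 7.52% and 47.2% of barcodes, and the depth and the share removed cannot be told apart from the groups. No pair of libraries shared more than 8 kept barcodes. Classes rest on marker genes that include none of the 7 members, and the names stand for neutrophil-like, phagocyte-like (macrophage and monocyte), dendritic-like, T-like, B-like, natural killer (NK)-like and type 2 innate lymphoid (ILC2)-like cells. Neutrophils numbered 102, 682 and 769 cells in Sham, AAA_7 and AAA_14, and phagocytes 13, 1006 and 1121. Dendritic cells numbered 48, 199 and 396, T cells 519, 554 and 940, B cells 417, 455 and 1272, NK cells 86, 177 and 108, and ILC2 18, 14 and 66. Levels are UMIs of a gene relative to all UMIs of the class, on the CPM scale. They were not divided by gene length and are compared between cells and libraries, not between genes.

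The 250 bases before the RefSeq start sites are shown for the ligands, which were counted in unlike classes, and for Csf2ra and Csf3r, receptor genes with high levels in neutrophils. Both strands of each 300-base window, which runs from 250 bases before to 50 bases after the start, were searched for GAGGAAG (a core recognised by PU.1), TTGCGCAA (C/EBP), the NF-kappaB motif of GGG and TTCC with any 3 bases between and TATAAA (a core promoter box). Of 32851 RefSeq windows, 13.6% held GAGGAAG, 0.183% TTGCGCAA, 5.56% the NF-kappaB motif and 13.6% TATAAA. Capitals mark a match. The stretches lie at chr3:107760470-107760719 on the minus strand for Csf1, chr11:54249900-54250149 on the minus strand for Csf2, chr19:61228419-61228668 on the minus strand for Csf2ra and chr4:126024409-126024549 on the plus strand for Csf3r (GRCm38.p6). For Csf3r only the 141 bases outside the annotated 5′ UTR are printed.
Csf1: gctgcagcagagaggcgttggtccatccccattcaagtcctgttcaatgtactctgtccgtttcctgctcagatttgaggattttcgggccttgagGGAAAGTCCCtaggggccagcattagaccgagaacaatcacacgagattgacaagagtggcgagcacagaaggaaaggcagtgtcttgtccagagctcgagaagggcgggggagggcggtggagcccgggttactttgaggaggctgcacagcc
Csf2: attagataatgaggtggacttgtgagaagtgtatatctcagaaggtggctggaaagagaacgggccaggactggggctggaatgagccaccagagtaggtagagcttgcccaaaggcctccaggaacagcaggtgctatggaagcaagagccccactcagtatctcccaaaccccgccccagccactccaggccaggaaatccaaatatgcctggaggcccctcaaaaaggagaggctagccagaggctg
Csf2ra: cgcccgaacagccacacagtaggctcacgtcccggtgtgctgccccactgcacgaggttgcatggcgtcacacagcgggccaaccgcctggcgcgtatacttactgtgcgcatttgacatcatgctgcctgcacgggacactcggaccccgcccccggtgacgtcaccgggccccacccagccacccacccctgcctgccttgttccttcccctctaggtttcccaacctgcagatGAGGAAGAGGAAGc
Csf3r: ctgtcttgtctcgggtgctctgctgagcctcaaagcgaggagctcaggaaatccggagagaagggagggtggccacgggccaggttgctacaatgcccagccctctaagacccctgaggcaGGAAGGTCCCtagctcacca
The Csf1 window held 1 match of the NF-kappaB motif on the opposite strand, 154 bases before the start. The Csf3r window held the NF-kappaB motif on the opposite strand 129 bases before the start and GAGGAAG 86 bases before it, the latter outside the printed stretch. The Csf2ra window held 2 matches of GAGGAAG that overlap, 14 and 8 bases before the start, and the Csf2rb2 window 2 on the opposite strand. None of the 4 motifs was found in the Csf2 window, which lies wholly upstream of the GENCODE start of Csf2 given below and does not cover the bases just before that start. A match is a run of letters and not a measured site.

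In the GENCODE vM21 annotation of the same build, Csf1 is a protein-coding gene at chr3:107741048-107760469 on the minus strand. Its UMIs sat mainly in neutrophils in AAA_7 and were spread over more classes in Sham and AAA_14. Its level in neutrophils, cells known for rapid entry into injured tissue, was 57.7 CPM in Sham (interval 37.3 to 85.1, 25 UMIs), 1009 CPM in AAA_7 (956 to 1065, 1333 UMIs) and 94.4 CPM in AAA_14 (85.1 to 104, 374 UMIs). The library titled AAA_7 stood far above both others, and the intervals of Sham and AAA_14 touched. Neutrophils with a Csf1 UMI were 8.82%, 51.6% and 19.9% in that order, and 5.94%, 41.2% and 8.14% after every cell was thinned to 1000 UMIs. In B cells, a class not known to use Csf1, the thinned shares were 0.243%, 0.231% and 0.482%. Median depths were 3520, 1698.5 and 3808 UMIs in neutrophils and 2358, 1823 and 4426 in B cells.

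On the log2 scale, neutrophil Csf1 rose by 4.10 (3.56 to 4.76) in AAA_7 over Sham and fell by 3.42 in AAA_14 against AAA_7 (interval -3.59 to -3.25). These were 2.97 and -2.88 after thinning, and the second -4.51 with a mitochondrial limit of 5%. In AAA_14 over Sham the log2 ratio was 0.68 (0.13 to 1.36) and did not reach the 2-fold limit that, with an interval leaving out 0, defined a call. Thinned to 1000 UMIs that ratio was 0.09, and with a mitochondrial limit of 5% it was -0.57. The neutrophil class was made of different cells in each library. A cluster led by Acod1, Slc7a11, Tnfaip2 and Hcar2 held 4 of the 102 Sham neutrophils, 569 of 682 in AAA_7 and 78 of 769 in AAA_14. A cluster led by Retnlg, G0s2, Stfa2l1 and Cxcr2, genes of mature circulating neutrophils, held 51, 18 and 405, and one led by the granule genes Ltf, Ngp, Mmp8 and Lcn2 held 47, 17 and 177. A cluster led by Ifit3b, Slfn4, Gm13822 and Ifit1, interferon-induced genes for the most part, held 0, 78 and 109.

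Within these clusters Csf1 took a steep gradient. The Acod1 cluster had 1113 CPM in AAA_7 and 457 CPM in AAA_14, and the Ifit3b cluster 1203 and 302 CPM. The Retnlg cluster had 143 CPM in Sham (88.6 to 219, 21 UMIs), 121 CPM in AAA_7 (6 UMIs) and 67.2 CPM in AAA_14 (55.0 to 81.3, 106 UMIs). The Ltf cluster had 14 CPM in AAA_14 and 0 UMIs in the others. Levels were thus ordered from granule-gene cells at the bottom to Acod1 and Ifit3b cells at the top in the AAA_7 and AAA_14 libraries.

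In the Retnlg cluster, the only neutrophil cluster with at least 50 cells in both, the comparison of AAA_14 with Sham took the other sign. There Csf1 fell by 1.12 on the log2 scale (interval -1.78 to -0.34), where 8.59% of 6743 measured genes were called either way. The Ltf cluster, with 47 Sham cells, was not compared, and its values given above were higher in AAA_14 than in Sham. Against AAA_7, Csf1 in AAA_14 fell by 1.28 in the Acod1 cluster and by 1.99 in the Ifit3b cluster. There 11.4% and 11.8% of measured genes were called. The difference across the whole class from AAA_7 to AAA_14 was thus larger than that within either cluster, and the cluster make-up differed between the libraries as well.

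**Figure D1:**
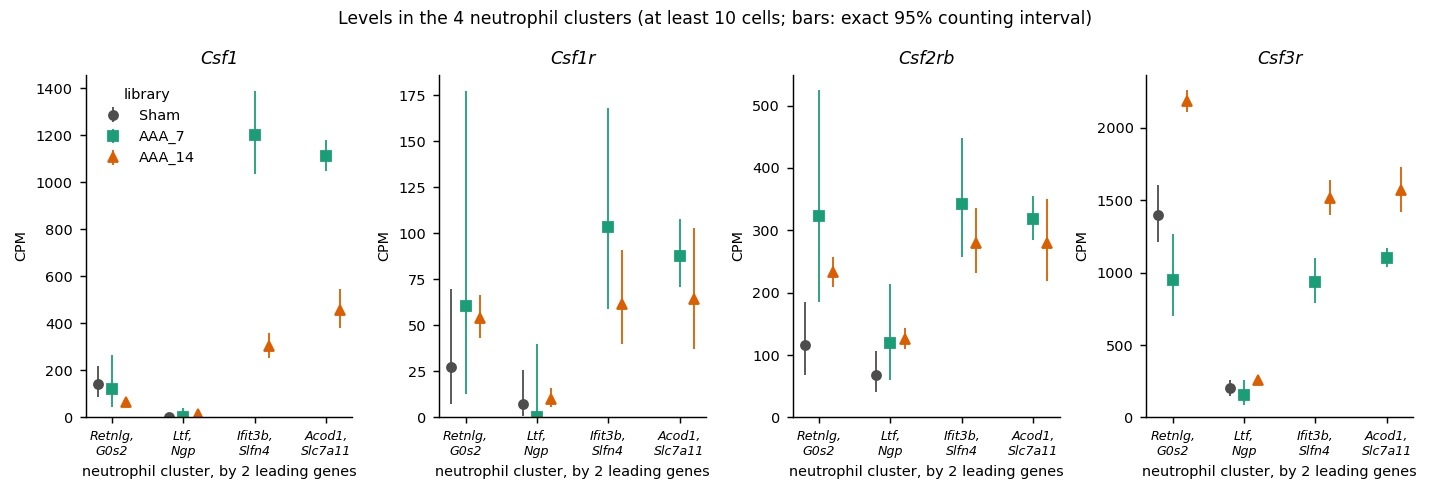
Levels of Csf1, Csf1r, Csf2rb and Csf3r in CPM in the 4 neutrophil clusters, by library, for clusters with at least 10 cells in the library. Each point is the summed UMIs of 1 cluster in 1 library, and bars are exact 95% counting intervals. Csf1 is near 1113 and 1203 CPM in the Acod1 and Ifit3b clusters of AAA_7 and at 14 CPM or 0 in the Ltf cluster.

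Outside neutrophils, Csf1 marked stromal cells and small lymphoid classes. Fibroblast-like cells, a known source of M-CSF in connective tissue, had 230.2 CPM in 3 Sham cells, 143 CPM in 7 AAA_7 cells and 145 CPM in 38 AAA_14 cells, so few cells had passed the CD45 selection. Smooth muscle-like cells of AAA_14 had 107 CPM in 26 cells, and 8 endothelial-like cells of AAA_7 had 476 CPM, of which 1 cell gave 65.4% of the UMIs. ILC2 had 77.7, 43.3 and 62.6 CPM from 6, 2 and 25 UMIs. Phagocytes, which use the ligand, had 0, 9.73 and 4.06 CPM.

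Csf1 in Sham dendritic cells stood at 118 CPM (37 UMIs), above Sham neutrophils, against 2.96 and 1.97 CPM in AAA_7 and AAA_14. Of the 48 Sham cells, 5 held at least 3 of 7 mast cell and basophil markers and 34 of the 37 UMIs. The other 43 cells had 3 UMIs, 10.1 CPM (2.09 to 29.6), so the level sat in cells with markers of another type. This check was chosen after the values were seen. In AAA_7, 1 dendritic cell held as many such markers, and in AAA_14 none did.

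By origin, neutrophils gave 30.1%, 89.8% and 48.8% of all Csf1 UMIs of Sham, AAA_7 and AAA_14 while making up 8.34%, 21.7% and 15.2% of cells. The dendritic class gave 44.6% in Sham, and fibroblast-like cells 14.9% in AAA_14 at 0.751% of cells. In these pooled sums, fewer cells of a class and less RNA per cell cannot be told apart.

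Csf2 is a protein-coding gene at chr11:54247271-54249667 on the minus strand, and its UMIs were concentrated in ILC2, rare lymphocytes of tissues that release type 2 cytokines. ILC2 had 751 CPM in Sham (570.3 to 971, 58 UMIs), 1212 CPM in AAA_7 (915 to 1574, 56 UMIs) and 1100 CPM in AAA_14 (999 to 1208, 439 UMIs). The level was high in all 3 libraries. Intervals overlapped between Sham and AAA_7 and between AAA_7 and AAA_14, while AAA_14 lay above Sham without overlap. In Sham 1 cell held 17 of the 58 UMIs, in AAA_14 1 held 84 of the 439, and in AAA_7 1 gave 55.4%. The intervals cover counting error only, so the gap between Sham and AAA_14 does not take in the spread between cells. Of the 14 AAA_7 cells, 3 held at least 3 of 7 mast cell and basophil markers and 0 Csf2 UMIs, and the other 11 had 1380 CPM (1043 to 1793); no ILC2 of the other libraries held as many. Cells with a Csf2 UMI were 44.4%, 28.6% and 43.9% of ILC2, and 33.3%, 25.0% and 21.2% after thinning, against 0% of thinned B cells in each library.

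ILC2 gave 89.2% of the Csf2 UMIs of Sham, 69.1% of AAA_7 and 86.2% of AAA_14, at 1.47%, 0.445% and 1.3% of cells. With 18 and 14 cells in Sham and AAA_7, under the 50 cells asked of a compared class, no ratio between libraries was formed for them. T cells gave most of the rest in Sham and AAA_14, at 1.83 CPM in Sham (6 UMIs), 0 in AAA_7 and 8.12 CPM in AAA_14 (57 UMIs). In AAA_14, 40 of the 57 UMIs came from a T cell cluster led by Cd163l1, Trdc, Tcrg-C1 and Cxcr6, genes of gamma-delta T cells, where the level was 56.7 CPM and 16.7% of cells had a UMI. Neutrophils had 14 Csf2 UMIs in AAA_7, from 2 cells of which 1 held 10, and 0 UMIs in the other libraries. Dendritic cells had 0, 0 and 1 Csf2 UMIs.

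**Figure D2:**
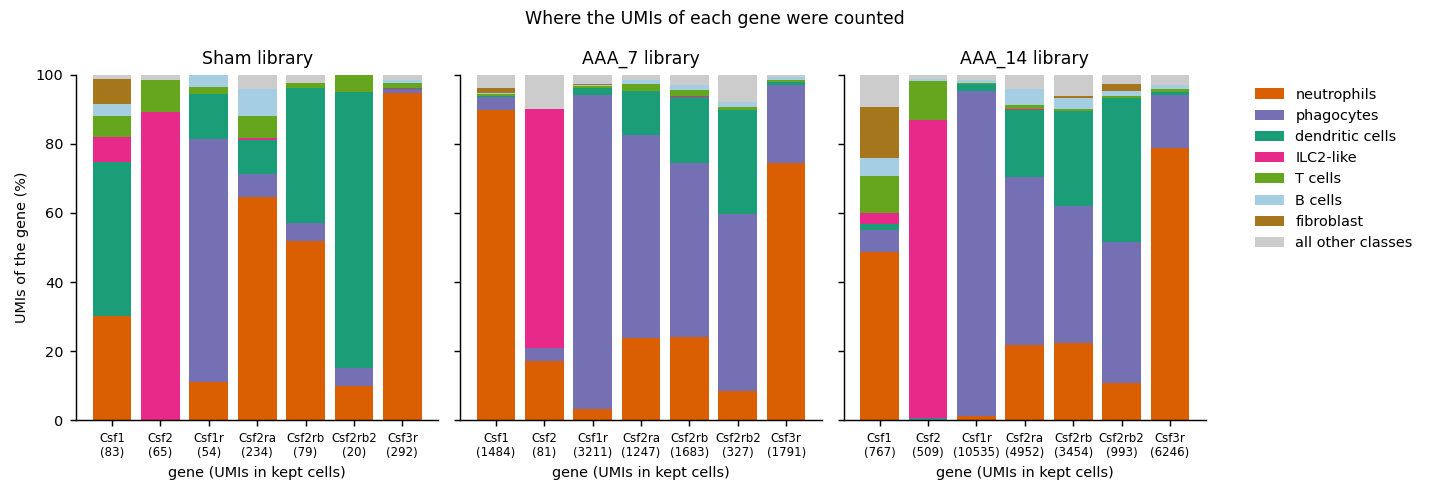
Share of the UMIs of each gene, in percent, that each cell class gave in each library (stacked bars from 0 to 100%). Csf2 comes from ILC2 at 69.1 to 89.2%, Csf1r from phagocytes at 70.4 to 94.0% and Csf3r from neutrophils at 74.5 to 94.5%.

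Csf1r, on chromosome 18, encodes the M-CSF receptor and was highest in phagocytes. The level was 508 CPM in Sham (38 UMIs in 13 cells), 525 CPM in AAA_7 (506 to 544, 2910 UMIs) and 820 CPM in AAA_14 (804 to 836, 9898 UMIs). AAA_14 stood above AAA_7 beyond counting error, with a log2 ratio of 0.64 (0.58 to 0.70) that did not reach 2-fold. Cells with a UMI were 73.8% of phagocytes in AAA_7 and 95.8% in AAA_14, and 37.8% and 52.5% at 1000 UMIs, against 1.62% and 0.401% of thinned B cells. Median depths of these phagocytes were 4646.5 and 9966 UMIs. Phagocytes gave 70.4%, 90.6% and 94.0% of all Csf1r UMIs.

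The phagocyte class was made of different cells in AAA_7 and AAA_14, beside its Csf1r, Csf1 and Csf2ra values. The cluster led by Thbs1 held 467 of the 1006 cells of AAA_7 and 59 of the 1121 of AAA_14, that led by Ccl8 294 and 510, that led by Slamf9 90 and 233, that led by Ear2 18 and 188, and that led by Mmp12 93 and 28. Mitochondrial UMIs of the class were 1.22% in AAA_7 and 5.11% in AAA_14. Its erythroid marker UMIs stood at 4.51 and 977 CPM, with 4 and 6 of 6 markers detected. The part of these in the ratios between the libraries was not tested.

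Among phagocyte clusters, the highest Csf1r was in cells led by Retnla, Cd209f, Cd209g and Lyve1, genes of resident macrophages around vessels, at 839 CPM in AAA_7 (737 to 951) and 1243 CPM in AAA_14. Cells led by Ccl8, Fcrls, Ccl7 and Mrc1 followed with 764 (724 to 807) and 1003 CPM, and the AAA_7 intervals of these clusters overlapped. Cells led by Ear2, Plac8, Ace and Vcan, which include monocyte genes, had 402 CPM in Sham (10 cells), 305 CPM in AAA_7 and 542 CPM in AAA_14. Cells led by Mmp12, Gpnmb, Spp1 and Arg1 had 349 and 564 CPM in AAA_7 and AAA_14, and cells led by Thbs1, Flrt3, Adora2b and Vegfa 408 and 459 CPM. In the cluster led by Slamf9, Ms4a7, Fcgr1 and Cd72, Csf1r rose from 317 CPM in AAA_7 to 672 CPM in AAA_14, a log2 ratio of 1.08 (0.86 to 1.32) where 7.01% of genes were called. AAA_14 had the higher value in each of these 6 clusters, but in the Thbs1 cluster the log2 ratio was 0.17 with an interval that held 0 (-0.045 to 0.38).

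Phagocyte Csf1 went the other way to its receptor. It fell by 1.26 on the log2 scale (interval -1.85 to -0.68) from 9.73 to 4.06 CPM, and the ratio was -0.75 after thinning. Among phagocytes, AAA_14 against AAA_7, 8.19% of 12385 measured genes were called, and of the 6 members with at least 10 UMIs Csf1 alone was called. In the Ccl8 cluster Csf1 fell by 1.52 and in the Slamf9 cluster by 1.93. Neutrophil marker UMIs in phagocytes were 0.628% of their level in neutrophils in AAA_7 and 0.382% in AAA_14, and phagocyte Csf1 was 0.965% and 4.30% of the neutrophil level. The part of Csf1 transcripts from neutrophils in this difference was not tested.

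Csf1r was also counted in neutrophils, at 13.8 CPM in Sham (6 UMIs), 82.5 CPM in AAA_7 (109 UMIs) and 36.3 CPM in AAA_14 (144 UMIs). It rose in AAA_14 over Sham by 1.28 on the log2 scale (0.24 to 2.86) and in AAA_7 over Sham by 2.47 (1.41 to 4.05), and fell by 1.18 from AAA_7 to AAA_14. The first of these was 0.30 after thinning and 0.57 with 5 counts added and the last -0.95 after thinning, each under 2-fold, while the second was 1.25 after thinning and stayed past 2-fold. Inside neutrophil clusters with at least 50 cells in both libraries, no Csf1r ratio was called. In the Retnlg cluster it was 0.82 (-0.43 to 2.89) for AAA_14 over Sham. For AAA_14 over AAA_7 it was -0.42 (-1.29 to 0.31) in the Acod1 cluster and -0.77 (-1.71 to 0.25) in the Ifit3b cluster. Neutrophil Csf1r was 2.73%, 15.7% and 4.43% of the phagocyte level in the 3 libraries, while the macrophage markers in neutrophils were 4.09%, 4.08% and 1.43% of theirs, with 3 of 10 markers detected in Sham and all 10 in the others. Phagocyte RNA in neutrophil droplets was not tested as a source. Dendritic cells had 22.3, 48.8 and 32.7 CPM.

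Csf2ra is a protein-coding gene at chr19:61223957-61228429 on the minus strand. The GM-CSF alpha chain was found in every myeloid class. Neutrophils had 348 CPM in Sham (295 to 408), 226 CPM in AAA_7 (201 to 253) and 272 CPM in AAA_14 (256 to 289). Sham was the highest library and AAA_7 the lowest, with intervals apart, yet no pair reached 2-fold: the log2 ratios were -0.36 for AAA_14 over Sham and -0.63 for AAA_7 over Sham. Phagocytes had 214 CPM in Sham (16 UMIs), 132 CPM in AAA_7 and 199 CPM in AAA_14, and dendritic cells 73.3, 117 and 159 CPM.

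The order of the Csf2ra levels was neutrophils, phagocytes and dendritic cells in AAA_7 and AAA_14. Neighbours did not overlap in AAA_14, and in AAA_7 phagocytes and dendritic cells did. Granulocyte precursors, bone marrow-type cells with Elane and Mpo, had 93.6, 149 and 156 CPM from 9, 5 and 34 cells. Thinned shares of neutrophils with a Csf2ra UMI were 33.7%, 19.2% and 24.7%, against 0.243%, 1.15% and 1.85% of B cells. The Retnlg neutrophils had 464 CPM in Sham and 352 CPM in AAA_14.

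Csf2rb and Csf2rb2, both protein coding, are neighbours on chromosome 15 that point away from each other, at chr15:78325752-78353847 on the plus strand and chr15:78282507-78305721 on the minus strand. Their main transcripts share 18.4 to 19.0% of their 50-base words but 0% in the last 500 bases, where 3′ reads fall. Csf2rb in neutrophils had 94.6 CPM in Sham (67.9 to 128, 41 UMIs), 307 CPM in AAA_7 (278 to 339, 406 UMIs) and 195 CPM in AAA_14 (181 to 209, 771 UMIs). Sham was the lowest and AAA_7 the highest, with intervals apart. Dendritic cells had 98.8, 240.5 and 156 CPM and phagocytes 53.4 (4 UMIs), 152 and 113 CPM. In AAA_7 and AAA_14 the order was neutrophils, dendritic cells and phagocytes, with no overlap between neighbours.

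The beta common chain rose in neutrophils of AAA_14 over Sham by 1.02 on the log2 scale (0.59 to 1.53), just past 2-fold. It lay below 2-fold at 0.69 with a mitochondrial limit of 5%, 0.94 with doublets kept, 0.98 with TMM factors (a scaling by most genes), 0.90 centred on the median gene, 0.88 with 5 counts added and 0.80 as a mean over cells, so the call depends on the setting while the sign does not. In AAA_7 over Sham it rose by 1.68 (1.23 to 2.20). From AAA_7 to AAA_14 the ratio was -0.66 (-0.84 to -0.48). The Retnlg cluster had 116 CPM in Sham, 324 CPM in AAA_7 and 233 CPM in AAA_14. Against Sham, neutrophil ratios of the alpha chain were thus below 0, without a call, and those of the beta common chain above 0.

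In thinned phagocytes of AAA_14, Csf2rb was found in 16.3% (11.5 to 22.1%) of cells with a Csf2ra UMI and in 8.69% (6.94 to 10.7%) of cells without one. In AAA_7 the shares were 9.80% and 11.7%. The same shares in thinned neutrophils were 2.94% and 11.9% in Sham, 29.7% and 24.2% in AAA_7, and 19.1% and 21.1% in AAA_14. For thinned dendritic cells they were 25.0% and 20.5% in AAA_7 and 11.1% and 15.9% in AAA_14. These are shares of cells of 1 library each and carry no test between them. Among dendritic clusters, cells led by Cd209a, Ffar2, Ddr1 and Klrd1 had 319 CPM of Csf2rb in AAA_7 and 178 CPM in AAA_14, and mature cells led by Fscn1, Ccl22, Apol7c and Cacnb3 had 203.6 and 264 CPM. In Sham, 13 of the 31 dendritic Csf2rb UMIs lay in the 5 cells with mast cell and basophil markers, and the other cells had 60.7 CPM.

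Among the classes compared between libraries, Csf2rb2, the interleukin-3 beta chain, was highest in dendritic cells, at 51.0 CPM in Sham (16 UMIs), 72.5 CPM in AAA_7 (58.9 to 88.4, 98 UMIs) and 68.2 CPM in AAA_14 (61.8 to 75.1, 415 UMIs). The libraries overlapped, and the log2 ratio of AAA_14 over AAA_7 was -0.09 (-0.41 to 0.24). It was -0.87 with a mitochondrial limit of 5%, -0.51 after thinning and 0.40 without the Cd209a cluster. Within the class, plasmacytoid-type cells led by Siglech, Cox6a2, Gm21762 and Ccr9, which are known for interferon release, had 83.0 CPM in Sham, 185 CPM in AAA_7 (119 to 276) and 336 CPM in AAA_14 (290.2 to 386). Of the 17, 26 and 55 such cells of Sham, AAA_7 and AAA_14, 29.4%, 57.7% and 90.9% had a UMI before thinning. Over all libraries together, 16.5% of the thinned cells of this cluster had a UMI. Depth differed between the libraries, and its part in the shares before thinning was not tested.

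Phagocytes had 13.4 (1 UMI), 30.1 and 33.5 CPM of Csf2rb2, and neutrophils 4.61 CPM in Sham (2 UMIs), 21.2 CPM in AAA_7 and 27.3 CPM in AAA_14. The neutrophil log2 ratio over Sham was 2.25 (0.68 to 5.63) for AAA_14 and 1.90 (0.21 to 5.32) for AAA_7. Both were calls that rest on 2 Sham UMIs, and with 5 counts added they were 0.82 and 0.63. Endothelial-like cells, too few to be compared, had 384 CPM (238 to 587, 21 UMIs) in 8 cells of AAA_7, above the dendritic class of that library, and 36.6 CPM in 23 cells of AAA_14.

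As a share of the UMIs of both beta chains, Csf2rb2 made up 4.65% (0.568 to 15.8%), 6.45% (4.33 to 9.19%) and 12.3% (10.2 to 14.6%) in neutrophils of Sham, AAA_7 and AAA_14. In phagocytes it made up 16.5% (14.3 to 19.0%) in AAA_7 and 22.8% (20.9 to 24.8%) in AAA_14, and in dendritic cells 34.0%, 23.2% and 30.4%. Dendritic cells were above phagocytes and phagocytes above neutrophils in both AAA_7 and AAA_14, and the share of each was higher in AAA_14 than in AAA_7. The dendritic class was not uniform. Over the 3 libraries together, its plasmacytoid-type cluster had 229 Csf2rb2 and 141 Csf2rb UMIs. The Cd209a cluster had 196 and 695, the Fscn1 cluster 54 and 199, and the cluster led by Xcr1 50 and 273. The class share thus does not describe each dendritic cluster.

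**Figure D3:**
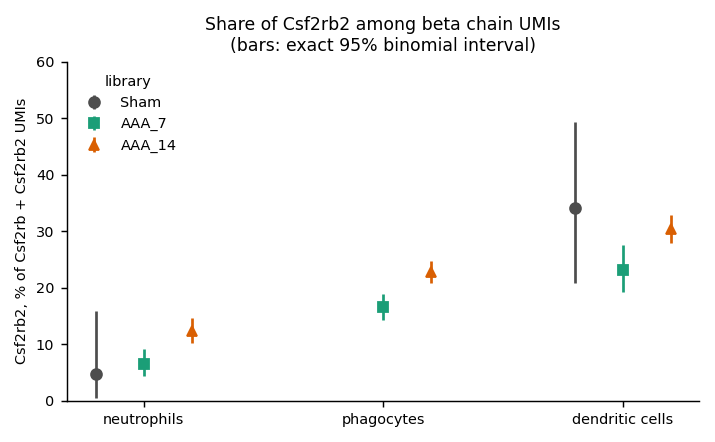
Csf2rb2 UMIs as a percent of the UMIs of both beta-chain genes, by class and library, with exact 95% intervals that cover counting error only. In AAA_7 and AAA_14 the share runs from 6.45% in neutrophils of AAA_7 to 30.4% in dendritic cells of AAA_14. In Sham it is 4.65% in neutrophils and 34.0% in dendritic cells.

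Csf3r is a protein-coding gene at chr4:126024550-126044440 on the plus strand, and its level followed neutrophils. It was 637 CPM in Sham (564 to 716, 276 UMIs), 1011 CPM in AAA_7 (957 to 1066, 1335 UMIs) and 1242 CPM in AAA_14 (1208 to 1278, 4923 UMIs). The 3 intervals did not overlap, with Sham the lowest and AAA_14 the highest. Thinned shares were 52.5%, 62.2% and 70.6% of neutrophils, against 0%, 1.39% and 0.482% of B cells. The log2 ratio of AAA_14 over Sham was 0.96 (0.79 to 1.15), just short of 2-fold, and it was 0.44 with a mitochondrial limit of 5% and 0.67 after thinning. AAA_7 over Sham gave 0.66 (0.48 to 0.86).

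The granule-gene Ltf cluster was the low end, with 200.3, 152 and 260 CPM, where granule proteins mark younger neutrophils. The Retnlg cluster had 1398 CPM in Sham, 951 CPM in AAA_7 and 2185 CPM in AAA_14, the Acod1 cluster 1101 and 1568 CPM in AAA_7 and AAA_14, and the Ifit3b cluster 938 and 1519 CPM. In AAA_14, Csf3r was thus highest in the Retnlg cells and Csf1 in the Acod1 cells. Phagocytes had 40.1, 72.1 and 79.6 CPM of Csf3r, 6.30%, 7.13% and 6.41% of the neutrophil level, where neutrophil markers were 0.0926%, 0.628% and 0.382% of theirs. Monocyte-type cells led by Ear2 had 145 CPM in AAA_14. Neutrophils gave 94.5%, 74.5% and 78.8% of all Csf3r UMIs.

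**Figure D4:**
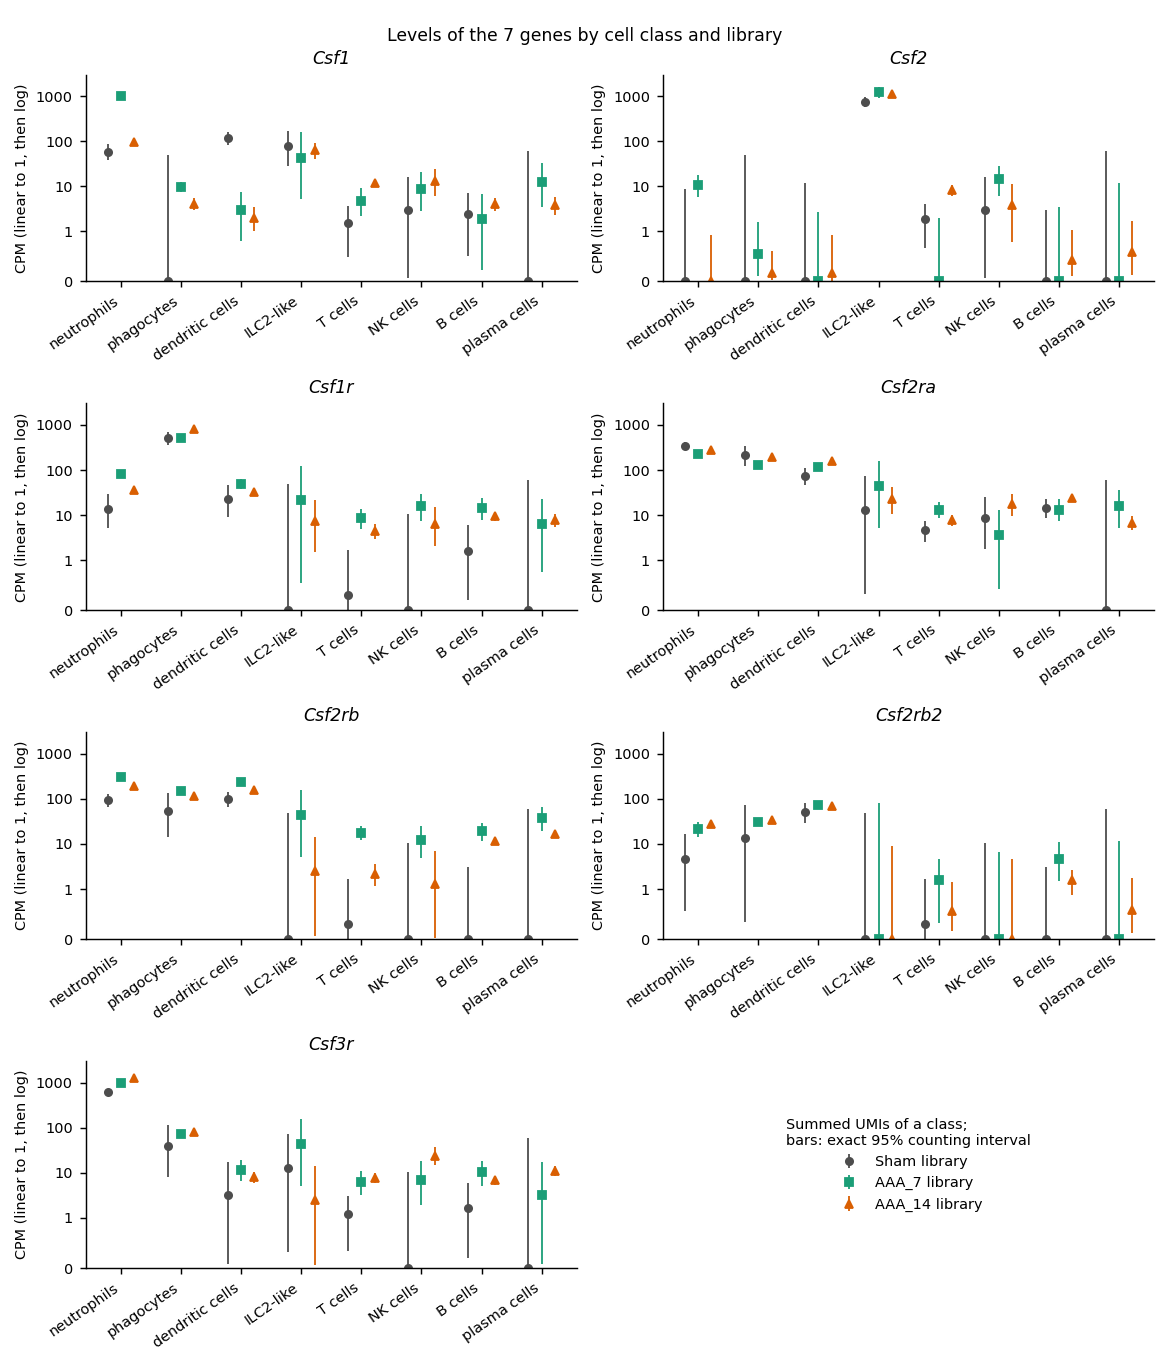
Level of each of the 7 genes in CPM (symmetric log axis) in 8 classes of the 3 libraries, with exact 95% counting intervals. Csf2 peaks in ILC2 at 751 to 1212 CPM, Csf1r in phagocytes at 508 to 820 CPM and Csf3r in neutrophils at 637 to 1242 CPM.

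Read together in neutrophils, 3 of the 6 measured members were called in AAA_14 over Sham, and all 3 (Csf1r, Csf2rb and Csf2rb2) were higher, where 9.78% of 8869 measured genes were called. For AAA_7 over Sham, 5 of 7 were called, all higher (Csf1, Csf1r, Csf2, Csf2rb and Csf2rb2), where 28.4% of 6666 genes were called. Csf2, at 0 UMIs in Sham, was at least 1.53-fold higher there, from 2 cells, and its log2 ratio was 0.32 with 5 counts added. For AAA_14 over AAA_7, 3 of 7 were called, all lower (Csf1, Csf1r and Csf2), where 20.9% of 9280 genes were called. Csf2, at 0 UMIs in AAA_14, was at least 14-fold lower at the floor of 3 counts. Its 14 AAA_7 UMIs all lay in the Acod1 cluster. Inside that cluster its log2 ratio was -2.90 with an interval reaching up to 0.22, which was not a call. Member medians were 0.99, 1.90 and -0.66 on the log2 scale, beside medians over all measured genes of 0.12, 0.19 and 0.09. These comparisons share libraries, and the 7 genes are not replicates. In dendritic cells none of 6 members was called in AAA_14 over AAA_7, where 8.6% of 11434 genes were called; Csf2rb was at -0.62 (-0.80 to -0.44) and Csf2ra at 0.44 (0.20 to 0.70).

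**Figure D5:**
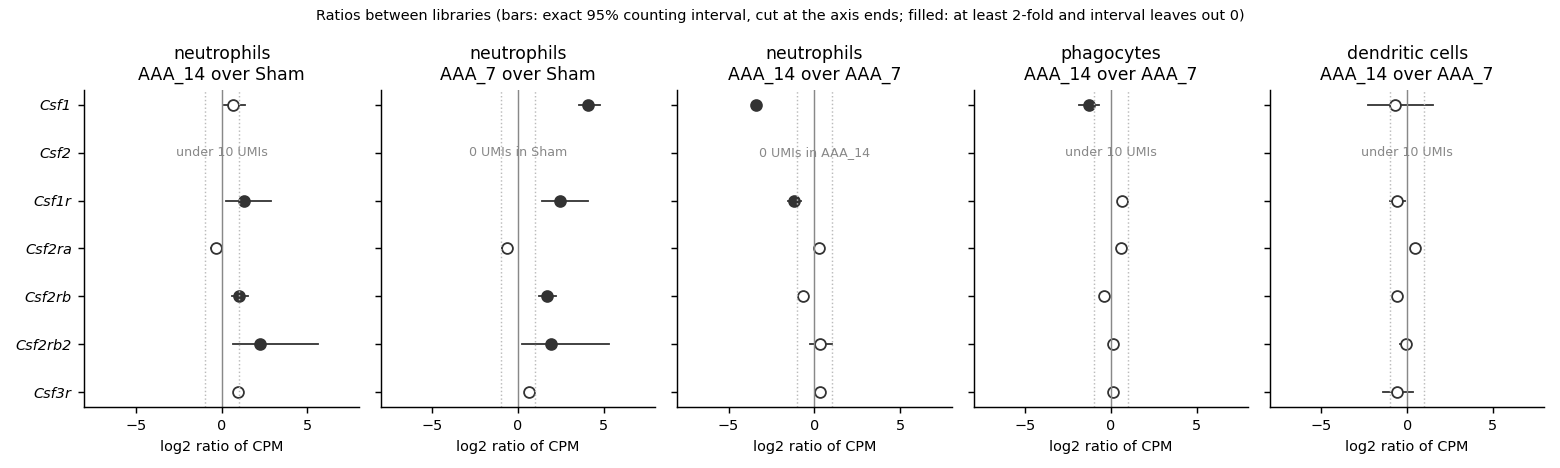
Log2 ratios of CPM with 95% counting intervals in neutrophils (3 pairs), phagocytes and dendritic cells (AAA_14 over AAA_7). Filled points were called, and a pair with 0 UMIs in a library is written out. Neutrophil Csf1 lies at 4.10 for AAA_7 over Sham and -3.42 for AAA_14 over AAA_7.

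Lymphocytes carried few UMIs of the receptors. T cells had 0.306, 8.50 and 4.42 CPM of Csf1r and 1.22, 6.37 and 7.83 CPM of Csf3r. In T cells, 5 of 6 members were called higher in AAA_14 over Sham, where 24.1% of 11749 genes were called and the median gene stood at 0.44 on the log2 scale, so calls lean to higher values there. In AAA_7 over Sham 4 of 5 were called higher, where 25.6% of genes were called. In B cells 3 of 6 were higher in AAA_14 over Sham (19.3% of genes called), 3 of 4 in AAA_7 over Sham (16.6%) and none of 6 called in AAA_14 over AAA_7 (9.31%). In NK cells 1 of 3 members was higher in AAA_14 over Sham (14.2%) and 2 of 5 in AAA_14 over AAA_7 (5.85%), namely Csf2ra with 14 and 2 UMIs and Csf3r with 19 and 4, of which 1 AAA_14 cell held 8. That Csf3r ratio was -0.10 with a mitochondrial limit of 20%. In B cells of AAA_14 over Sham, 5 counts added gave 0.78 for Csf1r and 0.36 for Csf3r.

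Macrophage marker UMIs moved in the same way in these lymphocytes. They stood at 19.2, 375 and 200.4 CPM in T cells of Sham, AAA_7 and AAA_14 and at 179, 575 and 470.1 CPM in B cells, with 5 of 10 markers detected in Sham T cells and 10 of 10 in the others. Csf1r in T cells was 0.0602%, 1.62% and 0.539% of its phagocyte level, while the markers were 0.833%, 1.77% and 0.749% of theirs. In B cells of AAA_7 both shares were 2.71%. In NK cells of AAA_7 the Csf1r share, at 3.02%, was above the marker share of 1.87%.

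Csf3r in lymphocytes was at a higher share of its neutrophil level than the neutrophil markers were of theirs, except in Sham NK cells, where it had 0 UMIs. In T cells it was 0.192%, 0.630% and 0.631%, beside marker shares of 0.0354%, 0.375% and 0.230%. In B cells it was 0.257%, 1.03% and 0.548%, beside 0.0617%, 0.296% and 0.235%. In NK cells of AAA_7 and AAA_14 it was 0.698% and 1.95%, beside 0.311% and 0.217%. The part of free RNA in the receptor UMIs of lymphocytes was not tested.

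The ligands were counted in T cells as well. Csf1 in T cells was 1.53 CPM in Sham (5 UMIs), 4.78 CPM in AAA_7 (9 UMIs) and 11.8 CPM in AAA_14 (83 UMIs). The AAA_14 level was 12.5% of that of neutrophils, where neutrophil markers in T cells were 0.230% of theirs. Csf1 rose by 2.82 (1.67 to 4.61) in AAA_14 over Sham and by 1.24 (0.31 to 2.49) over AAA_7, and Csf2 by 2.04 (0.94 to 3.65) over Sham and at least 5.1-fold over AAA_7. Over AAA_7, where 5.75% of genes were called, 2 of 6 members were higher and Csf2rb lower, at -3.01, but at 0.59 with a mitochondrial limit of 5%. The Csf1 ratio over AAA_7 was 0.79 with a mitochondrial limit of 20% and 0.75 with 5 counts added. Of the 83 UMIs, 44 lay in a cluster led by Izumo1r, Ctla4, Ikzf2 and Icos, genes of regulatory T cells among others. Clusters at resolution 2 set 263 T cells led by Icos and Cxcr6 apart from 165 led by Ikzf2, Ctla4 and Foxp3. Which of these held the Csf1 UMIs is not given here. The level in the Izumo1r cluster was 26.7 CPM against 12.3 CPM (5 UMIs) in AAA_7. That log2 ratio was 1.00 with an interval that held 0 (-0.21 to 2.81), so it was not called. Another 22 of the 83 UMIs lay in the Cd163l1 cluster, 19 of them in 1 cell.

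Genes around the receptors were read from 4 lists. Of 9 related ligands and receptors, 4 were measured in neutrophils of AAA_14 over Sham, and 1, Il3ra, the interleukin-3 alpha chain, was higher, where 9.78% of all genes were called. In AAA_7, Csf3, the ligand of Csf3r, had 57 UMIs (43.1 CPM) in neutrophils against 0 in Sham, at least 6.24-fold higher, and it fell by 2.55 to 7.32 CPM in AAA_14. Csf3 was highest in endothelial-like cells, at 549 CPM (30 UMIs, 8 cells) in AAA_7 and 52.9 CPM in AAA_14. Il34, the other ligand of the M-CSF receptor, had 0, 2 and 12 UMIs over all cells of the 3 libraries, and Il3 had 0. Il5, whose receptor uses the beta common chain, sat in ILC2 with 1, 31 and 20 UMIs.

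Of 19 genes of receptor signalling (kinases, STAT factors and their inhibitors), 1 of 19 measured was called in neutrophils of AAA_14 over Sham, which is 5.26% beside 9.78% of all measured genes. It was Socs3, a feedback inhibitor of cytokine receptors such as that for G-CSF, which rose from 46.1 to 238 CPM (log2 ratio 2.33, 1.73 to 3.09). In AAA_7 over Sham, 6 of 17 were higher, where 18.3% of all measured genes were higher, among them Socs3 at 3.14 and the kinase genes Jak2 at 2.02 and Pim1 at 2.07, and Stat5b was lower at -1.24. From AAA_7 to AAA_14, Stat5b was higher and Inpp5d, Socs1, Pim1 and Jak2 lower, 5 of 19 or 26.3% called beside 20.9% of all genes. In phagocytes 1 of 19 was called between these libraries, 5.26% beside 8.19% of all genes. It was Cish, a STAT5-induced inhibitor, which fell by 2.18, from 28.3 to 6.21 CPM, and in dendritic cells Cish fell by 2.44 and Pim1 by 1.13, 2 of 19 called, where 8.6% of all genes were. Median log2 ratios of the list were 0.45, 0.63 and -0.24 in the 3 neutrophil pairs and 0.09 in phagocytes.

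Among myeloid transcription factors, Irf8 at 2.16 and Egr1 at 1.22 were higher in neutrophils of AAA_14 over Sham. In AAA_7 over Sham, Cebpb was higher at 1.19, Runx1 at 1.86 and Klf4 at 2.55, and Cebpe, a factor of granule-gene stages, was lower at -1.94. In phagocytes of AAA_14 over AAA_7, Egr1 was higher at 1.05 and Egr2 lower at -1.75. In dendritic cells Cebpb was lower at -1.63, Klf4 at -1.52 and Egr2 at -1.07. Of 4 genes for shedding of receptors from the surface, Adam17, the protease known to release the M-CSF receptor, stood at 6.92, 101 and 37.4 CPM in neutrophils of Sham, AAA_7 and AAA_14, and its partner Rhbdf2 at 23.1, 99.2 and 65.4 CPM. Both rose over Sham in either library, Adam17 from 3 Sham UMIs. Adam10, another such protease, was lower in AAA_7 than in Sham, at 33.3 against 69.2 CPM. All 3 measured genes were thus called in AAA_7 over Sham, where 28.4% of all genes were, and 2 of 3 in AAA_14 over Sham, where 9.78% were.

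Over 45 cluster sums with at least 50 cells, from 27 clusters, the genes most like each member were ranked by Pearson r of log2(CPM + 10). The sums of a library share its depth, and those of a cluster its cells. Csf3r ran closest with Dmxl2, Tlr6, Ccr1, Pilra and Fpr2 (r from 0.95 to 0.96), and Csf1r with Ccl9, Adgre1, Clec4a3, Clec4a1 and Camk1 (0.94 to 0.96). Csf2 ran with Calca (0.96), a gene of the ILC2 marker list, then Col6a5 (0.88), Gm43445, Enah and Ptpn13. Of the ILC2, only the 66 cells of AAA_14 made such a sum, so each r of Csf2 rests largely on that 1 sum. Csf1 ran with Gm28809, Il23a, H2-Q10, Steap4 and Tnfrsf23 (0.90 to 0.91). With 1 CPM added in place of 10, only Steap4 of these stayed among the 5 nearest to Csf1, and r of the 5 fell to between 0.75 and 0.83. For Csf2, Gm43445 at 0.62 and Enah at 0.49 left the 5 nearest, while all 5 of Csf1r stayed.

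Csf2ra ran with Ifitm2, Alox5ap, Pirb, Gm34084 and Ifitm3 (0.93 to 0.96), and Csf2rb with Il13ra1 and Csf2ra (both 0.92), Ifitm2, Alox5ap and Skap2. The nearest gene to Csf2rb2 was Csf2rb at 0.86, ahead of Fmnl2, Gpr137b, I830077J02Rik and Peli2. The alpha chain and the beta common chain were thus the closest pair among the 7 members, followed by the beta chains. Csf1 ran with Csf3r at 0.80 and with its own receptor Csf1r at 0.19. Csf2 had r between -0.21 and 0.21 with each of the other members, values that also rest largely on 1 ILC2 sum.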

How the data were processed

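The authors deposited unnormalised UMI counts per gene and barcode, 1 table per library, and per the file headers Cell Ranger 6.1.2 wrote them. Seurat and mm10 appear in the submitters' processing notes beside Cell Ranger. For read filters and annotation, the step was not given in the sources used here. Barcodes with at least 200 genes and at most 10% mitochondrial UMIs were kept. Scrublet called 1, 0 and 0 doublets automatically, too few to count as working, and the 12, 83 and 224 highest scores were removed, at 0.8% per 1000 cells. Cells were scaled to 10000 counts, and 2000 variable genes without the members and listed genes, 30 principal components and 15 neighbours gave 36 Leiden clusters at resolution 1.0 and seed 1 (scanpy 1.11.5, leidenalg 0.10.2). Clusters were named from 19 marker lists. The name needed at least 3 own markers in 10% of the cells, and 1 cluster stayed unnamed. Limiting the rule to detected classes was decided after the clusters were seen, which named the Cd209a cluster and a cycling B cell cluster.

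Sums of counts for each class of a library were given as CPM with exact Poisson intervals, and shares with Clopper-Pearson intervals, at a confidence of 95%. Ratios had 0.5 counts added, needed 10 UMIs in both libraries together and 50 cells in each, and took intervals from the exact conditional binomial distribution. Ratios of at least 2-fold whose interval left out 0 were called. A fold against 0 used a floor of 3 counts. A count of 0 allows up to 0.245%, 0.0954% and 0.0593% of all cells of Sham, AAA_7 and AAA_14 to hold a UMI, which limits detection and not expression. The scripts were tested on simulated data. Named were the 7 members, the genes of 4 lists that were called or highest, the 5 most alike genes per member and up to 4 leading genes per cluster. Counts over the list of transcription factors are not reported here. Members and lists were chosen with earlier results of these data known. Annotation was GENCODE vM21, which held 99.6% of the gene identifiers, and promoters came from RefSeq on GRCm38.p6. TMM factors came from edgeR 4.0.16.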

Additional observations from a re-analysis of the deposited data

Results flagged for a closer look

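Ratios of AAA_14 over AAA_7 took opposite signs between classes for both ligands. For Csf1 the log2 ratio was -3.42 in neutrophils, -1.26 in phagocytes and 1.24 in T cells. For Csf2 it was -6.44 in neutrophils, where the 14 UMIs of AAA_7 came from 2 cells and AAA_14 had 0, and 4.95 in T cells, where AAA_7 had 0. Ratios against 0 depend on the 0.5 counts added. With 1 library per group, the difference between classes was not tested.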

How the results depend on the processing

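The 33 called ratios kept their sign under each alternative that gave a value, except 2. Csf2rb in T cells of AAA_14 over AAA_7 was 0.59 with a mitochondrial limit of 5%, and Csf3r in NK cells of AAA_14 over AAA_7 was -0.10 with a limit of 20%. The cause was not tested. Of the 33 called ratios, 4 moved beyond their counting interval after thinning to 1000 UMIs, 3 with the class taken from each cell's own markers, 2 as a mean over cells, 2 with 5 counts added, and 1 each with a mitochondrial limit of 5% and of 20%. Of the 40 ratios not called, 14 moved with the limit of 5%, 14 after thinning, 6 with each cell's own markers and 6 as a mean over cells. Neutrophil Csf1 moved from 4.10 to 2.97 (thinned) and 3.09 (mean over cells) in AAA_7 over Sham. From AAA_7 to AAA_14 it moved from -3.42 to -4.51 (limit of 5%), -3.00 (limit of 20%), -2.88 (thinned) and -2.91 (mean over cells). With each cell's own markers, the called ratios of AAA_14 over AAA_7 that moved were Csf1r in neutrophils at -1.61, Csf1 in phagocytes at -1.85 and Csf2rb in T cells at -1.88. Among the main results, Csf1 in neutrophils of AAA_14 over Sham moved to -0.57 (limit of 5%) and 0.091 (thinned to 1000 UMIs). Csf3r there moved to 0.44, 0.67 and 0.75 (limit of 5%, thinned, mean over cells). Csf1r in phagocytes of AAA_14 over AAA_7 moved to 0.57 (limit of 20%), 0.56 (doublets kept), 0.57 (TMM factors) and 0.55 (centred on the median gene). Csf2rb2 in dendritic cells of AAA_14 over AAA_7 moved to -0.87 (limit of 5%), -0.51 (thinned), -0.48 (beta chain genes summed) and 0.40 without the clusters a literal naming rule leaves unnamed. Clusters at resolution 2 and leaving out the top cell moved none of the 33 called ratios beyond its interval. Leaving out the cluster with T and B markers, centring on the median gene and the literal naming rule were chosen after seeing the data. With a limit of 5%, classes of Sham under 50 cells gave no value. No paired analysis was possible because each group is 1 library, and no replicate could be left out. Few cells and UMIs limit the Sham values, with 13 phagocytes and 6 or fewer UMIs of Csf1r and Csf2rb2 in neutrophils.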
